A study of Homo sapiens with 26 samples.

Results

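Regions that carried histone H3 monomethylated at lysine 4 (H3K4me1) in every library of HCT116 cells, and histone H3 acetylated at lysine 27 (H3K27ac) in none, are described here. The peaks of the 6 wild-type (WT) H3K4me1 lists were merged where they overlapped, which gave 110276 regions, and 60476 of these held a peak of all 6 lists. Of those, 25443 met no peak of any of the 10 H3K27ac lists, and 24399 also lay over 1000 bp from the nearest coding start site. These 24399 never-acetylated regions made up 22.1% of all merged regions and 53.9% of the 45309 distal regions called in all 6 lists. They were chosen by the presence and absence of peak calls in these lists, so their number, width, rank and distance from H3K27ac are given as a description.

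ChIP-seq was done in cells of the HCT116 line, which comes from a colorectal carcinoma and has intact p53, treated with DMSO (0 h) or with Nutlin-3a, an inhibitor of the p53 antagonist HDM2, for 1 h or 10 h. H3K4me1 was profiled at all 3 times in WT cells, and H3K27ac at the same times in WT cells and at 0 h and 1 h in an HCT116 line named for the cohesin subunit RAD21. In the study's methods RAD21 of that line carries a degron and was depleted with an auxin analogue, a treatment the labels do not give, although its peak names hold the letters KD. Every group had 2 libraries, which the study calls biological replicates. The labels do not say whether these were separate cultures, so p-values measure only the spread between these libraries.

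Enhancers are stretches of DNA that bind transcription factors and act on promoters from a distance. H3K4me1 is laid down at enhancers by MLL3 and MLL4 and can stand there with or without activity, whereas acetylation of H3K27 by p300 and CBP marks those in use. Enhancers with the first mark alone are commonly called primed, since many gain acetylation when a signal or a developmental step calls on them.

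The lists held 84492 to 92943 H3K4me1 peaks and 31640 to 49127 H3K27ac peaks. Depth behind a value cannot be read from peak lists without counts, although the study's methods set a minimum depth for each mark. A region without an H3K27ac call may still carry acetylation below the calling threshold. In 3 of the 10 H3K27ac lists (both WT lists at 0 h and replicate 1 at 1 h) the peak names lack the word input that the other 7 carry. The 3 alone left 28767 regions without H3K27ac and the 7 alone left 26452. As a check of the cell line, promoters of 7 of 10 colorectal epithelial marker genes carried H3K27ac in all 10 lists and those of CDX1, VIL1 and LGALS4 in none. None of 12 leukocyte, endothelial, hepatocyte and muscle marker promoters did, and SYT1 was the 1 of 3 neuronal markers that did.

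The sequences below are the central 300 bases of never-acetylated regions, read from GRCh37 on the forward strand. Capitals mark each match to TGANTCA, with N any base, which was the commonest of the motifs searched. These letters take in TGACTCA and TGAGTCA, the sites of the AP-1 factors (dimers of FOS and JUN proteins). They also take in TGATTCA and TGAATCA, which are not the usual AP-1 site. All such matches are called AP-1 letters here, and the kinds were not counted apart. COPS8 and MAP3K2 were picked for these letters after their values were seen. The region near LGR6 had the highest mean H3K4me1 rank of all, and those near NPAS4, COPS8 and MAP3K2 had the highest ranks among regions with a match. The region in VWA2 had the smallest p-value for a higher rank at 10 h than at 0 h.
LGR6 (chr1:202169118-202169417): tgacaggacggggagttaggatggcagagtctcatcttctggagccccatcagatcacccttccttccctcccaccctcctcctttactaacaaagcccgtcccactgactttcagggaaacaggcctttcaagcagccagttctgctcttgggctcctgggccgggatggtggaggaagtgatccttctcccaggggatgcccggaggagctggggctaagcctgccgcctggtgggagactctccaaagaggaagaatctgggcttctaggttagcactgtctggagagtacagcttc
NPAS4 (chr11:66185629-66185928): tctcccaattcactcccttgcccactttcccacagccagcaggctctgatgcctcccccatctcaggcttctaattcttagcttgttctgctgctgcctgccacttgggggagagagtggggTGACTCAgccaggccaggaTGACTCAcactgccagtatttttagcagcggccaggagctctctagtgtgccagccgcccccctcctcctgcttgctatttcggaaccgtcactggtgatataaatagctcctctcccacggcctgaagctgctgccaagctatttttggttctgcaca
COPS8 (chr2:238036843-238037142): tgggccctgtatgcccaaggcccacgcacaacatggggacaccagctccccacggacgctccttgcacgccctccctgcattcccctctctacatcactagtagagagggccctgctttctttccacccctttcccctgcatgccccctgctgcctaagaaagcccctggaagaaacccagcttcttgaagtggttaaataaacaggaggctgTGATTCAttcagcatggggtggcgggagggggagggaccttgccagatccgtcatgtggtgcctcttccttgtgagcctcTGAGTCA
MAP3K2 (chr2:128155932-128156231): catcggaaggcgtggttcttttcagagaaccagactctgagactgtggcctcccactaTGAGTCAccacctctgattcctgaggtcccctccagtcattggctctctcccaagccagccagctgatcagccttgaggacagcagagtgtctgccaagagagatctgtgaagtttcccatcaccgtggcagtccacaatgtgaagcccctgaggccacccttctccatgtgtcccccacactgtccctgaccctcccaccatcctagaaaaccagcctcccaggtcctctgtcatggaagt
VWA2 (chr10:116031228-116031527): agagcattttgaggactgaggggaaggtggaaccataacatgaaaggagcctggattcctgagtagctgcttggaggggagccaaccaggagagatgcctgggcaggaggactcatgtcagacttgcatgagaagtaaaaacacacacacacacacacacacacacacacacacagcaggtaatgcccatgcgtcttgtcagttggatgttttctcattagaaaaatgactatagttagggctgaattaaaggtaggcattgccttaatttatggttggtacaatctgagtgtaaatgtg

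Shorter windows of 60 bases show full p53 elements, 2 half-sites with no spacer, in capitals. Only 11 never-acetylated regions held one anywhere along their length. Shown are the 2 that were called higher at 10 h than at 0 h, in introns of LAMA3 and DSE, and the 3 highest ranked of the intergenic ones, named by their nearest coding gene. The windows are from GRCh37, forward strand.
LAMA3 (chr18:21463638-21463697): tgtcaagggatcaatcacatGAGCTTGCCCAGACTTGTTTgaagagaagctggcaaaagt
DSE (chr6:116673924-116673983): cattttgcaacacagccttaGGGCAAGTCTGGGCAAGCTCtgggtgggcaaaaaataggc
EFL1 (chr15:82413540-82413599): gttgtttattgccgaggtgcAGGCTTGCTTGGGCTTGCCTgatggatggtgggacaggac
RPL34 (chr4:109388494-109388553): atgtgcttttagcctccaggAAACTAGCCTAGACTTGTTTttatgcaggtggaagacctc
GMNN (chr6:24763930-24763989): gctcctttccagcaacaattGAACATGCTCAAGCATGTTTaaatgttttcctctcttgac

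Never-acetylated regions were narrow and of middling rank. Their median width was 1454 bp, with 1065 and 2164 bp as the quartiles, against 2555 bp in the 14272 distal regions that met H3K27ac in 1 to 9 lists and 5126 bp in the 6638 that met it in all 10. Regions were ranked within each list by the highest −log10 p-value of their peaks, from 0 for the weakest to 100 for the strongest. The mean percentile over the 6 lists had a median of 42.4 (quartiles 30.6 and 56.9). The corresponding medians were 68.7 and 90.0 in the acetylated sets. Width and rank both climbed with each further acetylated list, except that regions of 7 lists ranked at 76.9 and those of 6 lists at 77.1. A wide region has more room to meet an H3K27ac peak, and 91.8% of the distal regions up to 1000 bp wide were never acetylated against 8.97% of those over 5000 bp. Among regions over 2000 and up to 3000 bp wide the median percentile was still 48.5 without H3K27ac, 70.8 with it in 1 to 9 lists and 79.1 with it in all 10.

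**Figure D1:**
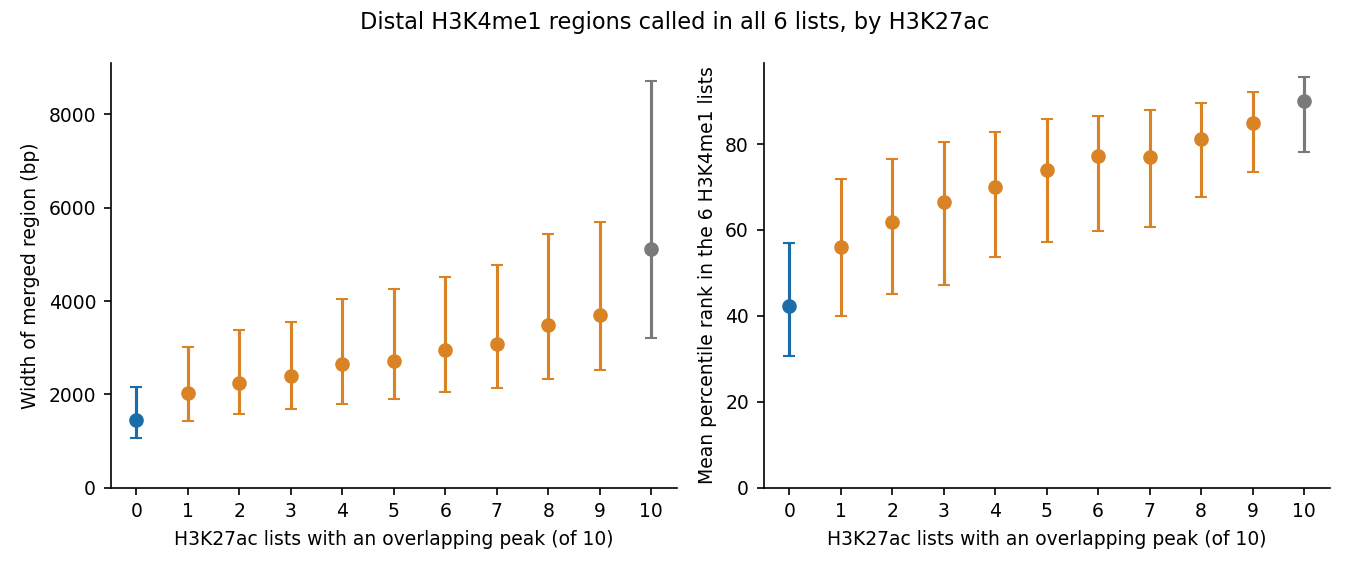
Width in bp (left) and mean H3K4me1 percentile rank (right) of distal regions called in all 6 H3K4me1 lists, by how many of the 10 H3K27ac lists overlap them; points are medians and bars run between the quartiles over regions. Never-acetylated regions (blue, 0 lists) have a median width of 1454 bp and a median percentile of 42.4, and the regions of all 10 lists (grey) 5126 bp and 90.0.

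At the edges of the rule, the 3643 regions that met H3K27ac in exactly 1 list had a median width of 2022 bp and a median percentile of 56.1. The 6128 regions that lacked a peak in 1 of the 6 H3K4me1 lists had medians of 938 bp and 22.4. The 165 never-acetylated regions within 1500 bp of a coding start had a median width of 1433 bp, and the 133 regions excluded for lying over 500 but not over 1000 bp from one had 1478 bp. Of the 3643 regions with a single acetylated list, 613 met the WT 0 h replicate 2 list and 179 the WT 10 h replicate 1 list, the extremes.

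The median percentile of the never-acetylated regions was 46.4 and 41.6 in the 0 h lists, 49.2 and 45.3 in the 1 h lists and 37.5 and 43.0 in the 10 h lists. Both 1 h lists stood above both 10 h lists, the 0 h lists overlapped each of these groups, and 10 h replicate 1 was lowest. That list also called the fewest peaks, 84492. A percentile was taken over the regions called in its own list, for single regions too, so its scale differs between lists. Regions called numbered 83378 and 76310 at 0 h, 87919 and 81306 at 1 h and 73399 and 80684 at 10 h. The medians stood in the same order as these numbers, and how much of the order by time comes from them was not tested. The median fold enrichment of the never-acetylated regions was 3.65 and 3.52 at 0 h, 3.13 and 3.47 at 1 h and 3.41 and 3.66 at 10 h. A single region spanned a median of 26.6 percentile points over the 6 lists, against 14.8 points for the other distal regions and 7.53 for those acetylated in all 10 lists, whose ranks lie near the upper end of the scale. The median gap between the 2 lists of a time was 8.45 points at 0 h, 8.66 at 1 h and 9.00 at 10 h. For correlations, ranks over all regions called in all 6 lists were turned into normal scores. Across the never-acetylated regions the Pearson correlations of these scores were 0.779, 0.766 and 0.766 between the lists of 1 group. Between groups they were 0.633 to 0.76, a description over regions that share libraries. Only 48 of the regions stood above the 90th percentile in all 6 lists, and 4579 (18.8%) stood above the median in all 6.

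The highest ranked region lay in an intron of LGR6, a receptor for R-spondins of the Wnt pathway, 1.43 kb from the nearest coding start. It spanned chr1:202167100-202171435 and ranked at 97.2 and 99.3 at 0 h, 99.5 and 99.3 at 1 h and 97.9 and 98.8 at 10 h. All 6 values sit within a few points of each other, and the LGR6 promoter carried H3K27ac in no list. The nearest H3K27ac peak was 33.4 kb away. The next 4 by mean percentile lay near PDLIM1 (98.3), a cytoskeletal PDZ and LIM domain protein, PTPRS (97.9), a receptor tyrosine phosphatase, NPAS4 (97.7), an activity-regulated transcription factor of neurons, and AC008132.13 on chromosome 22 (97.6). The promoters of PDLIM1 and PTPRS were acetylated in all 10 lists, and those of NPAS4 and AC008132.13 in none.

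The 5 widest regions ranked at mean percentiles of 46.9 to 73.7, and 4 of them lay in introns. The widest, chr21:32761504-32784097 in an intron of TIAM1, a guanine nucleotide exchange factor for RAC1, measured 22594 bp. Its peaks covered 20557 and 18310 bp at 0 h, 18176 and 21730 bp at 1 h and 16420 and 19737 bp at 10 h, with overlapping groups, and its mean percentile was 48.7. The next 4 were 20891 bp near ITPRID2, 20534 bp in an intron of ZBTB20, 17891 bp in LPP and 15859 bp in FOXO3, the last a forkhead transcription factor. The nearest H3K27ac peak lay 8.58 to 21.5 kb from each of these 5 domains.

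Never-acetylated regions lay somewhat farther from genes than acetylated ones. Their median distance to a coding start was 35719 bp, against 29476 bp and 29137 bp in the sets acetylated in 1 to 9 and in all 10 lists. 40.1% lay over 50 kb away and 21.7% over 100 kb, against 34.9% and 18.5%, and 35.3% and 18.2%, in these sets. By annotation 45.5% lay in introns of coding genes, 37.9% between genes, 14.5% in noncoding genes, 1.24% in UTRs or other exons and 0.832% in coding exons. Intergenic positions took 30.3% and 30.6% of the acetylated sets. The 3 farthest lay 2462 kb from ARAP2, 2144 kb from AGA and 2113 kb from PIK3C3. The ARAP2 region (chr4:33781923-33784033) held percentiles of 77.6 and 71.1 at 0 h, 73.5 and 69.5 at 1 h and 74.2 and 79.2 at 10 h. The 0 h lists overlapped both other times, and the 10 h lists stood above the 1 h lists.

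They were also away from H3K27ac: the nearest acetylated peak lay at a median of 13137 bp, with quartiles of 5418 and 32152 bp, and 329 regions had one within 1000 bp. The share of distal H3K4me1 regions that were never acetylated ran from 43.6% on chromosome 19 to 57.3% on chromosomes 2 and X, leaving out Y with 0 of 1 region. In 539 gaps between successive H3K27ac peaks, 5 or more never-acetylated regions stood together, 3216 regions (13.2%) in all. The fullest gap, chosen after its count was seen, ran from 153492183 to 154714232 on chromosome 6. It held 19 never-acetylated regions in 1222050 bp, with a median percentile of 37.3 and with RGS17, OPRM1 and IPCEF1 as their nearest coding genes. A further 2 gaps held 15 each. The nearest coding genes there were RBPJ and SMIM20 on chromosome 4, and CD83 and JARID2 on chromosome 6.

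**Figure D2:**
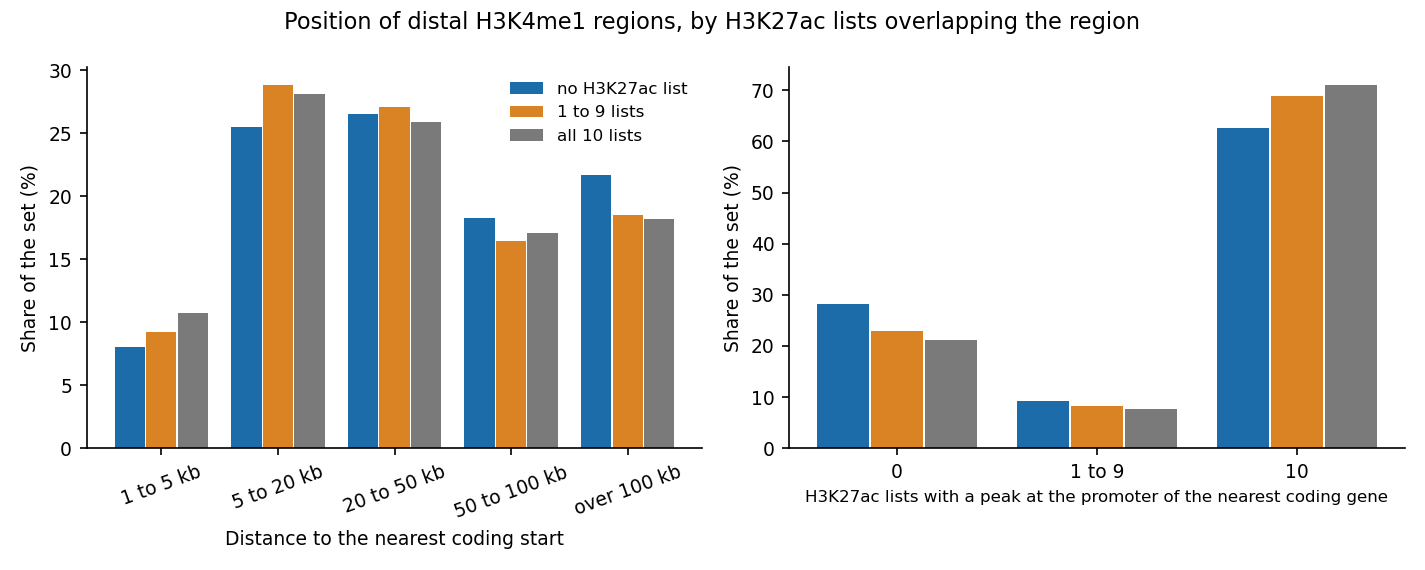
Share of each set (%) by distance to the nearest coding start (left) and by how many of the 10 H3K27ac lists have a peak at the promoter of the nearest coding gene (right), for distal H3K4me1 regions with no H3K27ac, with it in 1 to 9 lists and in all 10. Never-acetylated regions have the highest share beyond 100 kb (21.7%) and beside promoters with no H3K27ac (28.2%).

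Most never-acetylated regions nevertheless stood nearest to an active promoter. The nearest coding gene had promoter H3K27ac in all 10 lists for 62.7% of them and in none for 28.2%. The shares were 68.9% and 22.9% in the set acetylated in 1 to 9 lists, 71.0% and 21.2% in the set acetylated in all 10, and 58.1% and 34.4% over all 19785 coding genes. The never-acetylated distal regions were spread over 9240 nearest coding genes (46.7% of all), 3863 of which had a single region, while 229 genes with 10 or more took 11.9% of the regions.

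The 10 genes with the most never-acetylated regions had 21 to 24 each. MYC, the transcription factor of growth and proliferation, and NR5A2, a nuclear receptor, had 24 each. They differed at the promoter, acetylated in all 10 lists at MYC and in none at NR5A2. TNS3, a focal adhesion protein, had 23. CDKAL1, a tRNA-modifying enzyme, NR2F1, a nuclear receptor, and UTRN, the dystrophin relative utrophin, had 22 each. CAMTA1, a calmodulin-binding transcription activator, PIK3R1, the regulatory subunit of PI3-kinase, TBL1XR1, a subunit of corepressor complexes, and ZFP36L1, which promotes decay of mRNAs, had 21 each. All but NR5A2 of these 10 had promoter H3K27ac in all 10 lists. The same genes also had acetylated distal regions, 21 beside the 24 at MYC but only 4 beside the 21 at PIK3R1. Regions lay in introns of the gene itself for 20 of 22 at CDKAL1, 20 of 21 at CAMTA1 and 15 of 22 at UTRN, the 3 longest of these genes. The counts were 8 of 23 at TNS3, 7 of 24 at NR5A2, 5 of 21 at TBL1XR1 and 2 of 21 at PIK3R1. At MYC, NR2F1 and ZFP36L1 none did, and the MYC regions ran from 17.6 to 911 kb from its start.

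Gene lists are described by how many never-acetylated regions had a list gene as their nearest coding gene, beside the distal regions called in all 6 lists as a whole, of which 53.9% were never acetylated. In the list of leukocyte, cytokine and chemokine genes 224 of 340 distal regions (65.9%) were never acetylated, the highest share, led by IL12B and PTPRC with 11 each and IL1RAPL1 with 10. The promoter of PTPRC, the leukocyte antigen CD45, carried H3K27ac in no list and that of IL12B, a subunit of interleukins, in 10. IL1RAPL1, counted in this list although its protein acts at synapses of neurons, had promoter H3K27ac in 9. For TGF-beta, BMP and EGF receptor pathway genes the count was 185 of 315 (58.7%), with TGFBR2 (16), the type II TGF-beta receptor, BMP7 (13), a bone morphogenetic protein, and SMAD7 (12), an inhibitor of the pathway, in front. Homeobox, SOX, FOX, PAX, TBX, GATA, RUNX and related developmental factors had 472 of 817 (57.8%). There MSX2 and RUNX1 had 20 each and SOX9 19. Axon guidance and synaptic adhesion genes followed with 186 of 323 (57.6%), led by EFNA5 (12), SEMA3A (10) and EPHA4 (9). All 9 distal regions at EPHA4, an ephrin receptor, were never acetylated.

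Laminins, collagens and integrins had 176 of 306 (57.5%), with COL13A1 and LAMA3 at 11 and LAMA2 at 9. Cytosolic ribosomal protein genes had 82 of 143 (57.3%), led by RPS24 (9), RPS23 (7) and RPL30 (5), and ion channels and neurotransmitter receptors 368 of 650 (56.6%), led by KCNMA1 (18), GRID1 (10) and GRIK4 (10). Shares under the overall 53.9% were found for intestinal epithelial and Wnt target genes (136 of 257, 52.9%), where SOX9 (19), KLF4 (16) and KLF5 (13) led, and for ZNF zinc finger genes (284 of 546, 52.0%), where ZNF608 (18), ZNF281 (13) and ZNF648 (9) did. Olfactory receptors had 62 of 120 (51.7%), with OR4F29 at 5 and OR4F3 and OR6J1 at 4. The OR4F genes have near-identical copies, so reads there may be placed wrongly. Cadherins and protocadherins had 110 of 215 (51.2%), with PCDH7 (14), CDH17 (7) and CDH22 (7).

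Of 43 canonical p53 targets, 22 had at least 1 never-acetylated region nearest to them, 65 regions of 115 (56.5%). KITLG, the ligand of the KIT receptor, had 10, CD82, a tetraspanin, 8, the polo-like kinase PLK2 and the BH3-only protein PMAIP1 5 each, and GADD45A, a growth arrest gene, 4. The promoters of these 5 carried H3K27ac in all 10 lists. At CD82 the 8 regions made up most of its 10 distal H3K4me1 regions, 3 of them in its introns, and their median percentile was 63.4. At KITLG it was 33.2.

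AP-1 letters were more frequent in never-acetylated regions than in acetylated ones, and their share depended on width. TGANTCA, which reads the same on both strands, stood in the central 300 bases of 28.1% of the never-acetylated regions. It stood in 21.7% of those acetylated in 1 to 9 lists, 17.4% of those acetylated in all 10, and 22.0% of all merged regions. In never-acetylated regions the share fell from 40.8% up to 1000 bp of width through 33.3%, 25.2%, 16.5% and 14.4% to 10.9% over 5000 bp. The set acetylated in 1 to 9 lists had 32.7% in the narrowest class and 30.4% in the next. It exceeded the never-acetylated regions in all 4 classes over 1500 bp, with 28.0%, 22.8%, 16.3% and 11.6%. The surplus of AP-1 letters over that set was thus present in the 2 classes up to 1500 bp only. Over the set acetylated in all 10 lists it reached the next class (25.2% against 24.3%) and turned in the wider ones. The share also rose with distance from a coding start, from 21.9% at 1 to 5 kb to 35.1% beyond 100 kb.

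**Figure D3:**
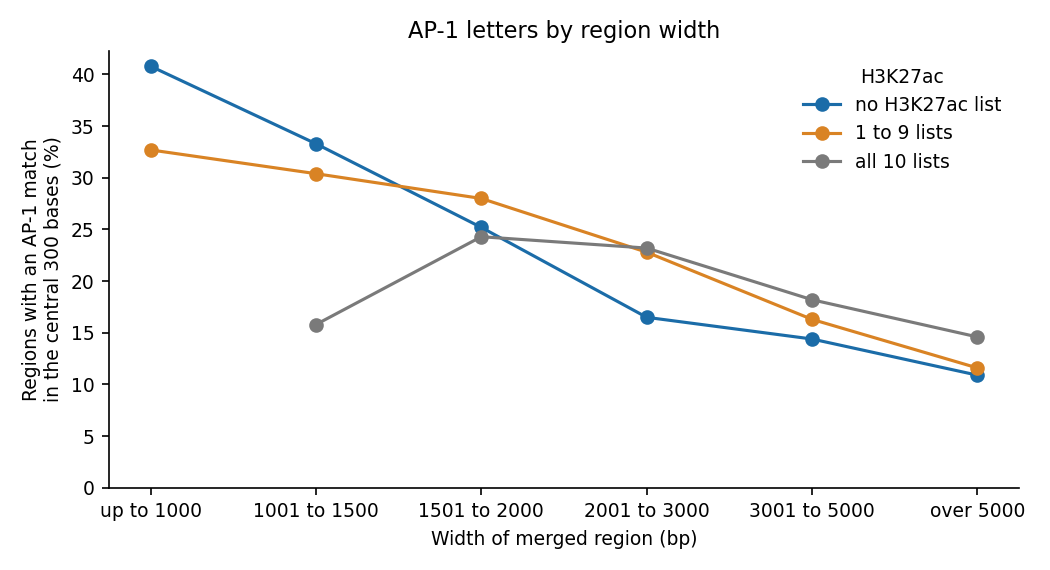
Share of distal H3K4me1 regions (%) with TGANTCA in their central 300 bases, by width class of the merged region in bp, for regions with no H3K27ac, with it in 1 to 9 lists and in all 10 (no point under 20 regions). Never-acetylated regions fall from 40.8% to 10.9% and lie above the regions of 1 to 9 lists only in the 2 narrowest classes.

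The other motifs differed by fewer percentage points. TCF/LEF letters (CTTTGAT, both strands) were in 5.00% of never-acetylated regions against 4.03% and 4.04% of the acetylated sets and 4.33% of all merged regions. Those of CDX factors (TTTATNG) were in 16.0% against 14.7% and 14.2%, and 14.8% of all. The forkhead letters TGTTTAC stood in 4.66% of never-acetylated and 4.66% of all merged regions. For GATA factors, searched as AGATAAG, the shares were 4.04% and 3.77%. The E-box CACGTG was found in 3.86% and 3.85%. Part of the binding motif of the insulator protein CTCF, searched as AGGGGGC, was found in 5.45% and 5.76%. Letters of the ETS family, ACTTCCG, were in 0.709%, against 1.24% in the set acetylated in all 10 lists and 0.936% of all. Median GC content of the window was 45.7%, 46.3% and 47.3% in the 3 sets.

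Full p53 elements were sparse in never-acetylated regions. The 11 elements in 44.1 Mb came to 0.250 per Mb, against 45 in 47.0 Mb (0.957 per Mb) in regions acetylated in 1 to 9 lists and 31 in 50.5 Mb (0.614 per Mb) in those acetylated in all 10. All merged regions held 219, or 0.827 per Mb. Single p53 half-sites did not show this: the decamer stood in the central window of 8.82% of never-acetylated regions, 8.42% and 8.01% of the acetylated sets and 9.33% of all merged regions. The rule left out regions acetylated after Nutlin-3a, and the study reports that p53-bound enhancers gained H3K27ac then. How much of the low density of full elements comes from this choice was not tested.

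H3K4me1 over the Nutlin-3a course was compared by rank, since a peak's p-value depends on its library. Ranks of the 60476 regions called in all 6 lists were turned into normal scores, so that 1 unit is 1 SD of the regions of a list, and fitted with limma with Benjamini-Hochberg adjustment over all of them. The median change of the never-acetylated regions was 0.01 at 1 h against 0 h, -0.04 at 10 h against 0 h and -0.05 at 10 h against 1 h. Median standard errors were 0.32, against 0.24 over all regions tested. At 1 h against 0 h, 39 of 24399 were called higher and 48 lower, 0.160% and 0.197%, where 0.291% and 0.304% of all regions tested were called. At 10 h against 0 h, 85 were higher (0.348%, background 0.615%) and 3 lower (0.0123%, background 0.0231%). Between 1 h and 10 h, 315 were higher (1.29%, background 1.92%) and 258 lower (1.06%, background 1.13%). In the set acetylated in 1 to 9 lists 1.60% were higher at 10 h than at 0 h, and in the set acetylated in all 10 lists 0.392%. Regions with H3K27ac at 10 h only fall in the former set by the rule, and what this adds was not tested. An unadjusted limma p under 0.05 was about as frequent in never-acetylated regions as in all regions. At 1 h against 0 h the shares were 15.5% and 15.5%, at 10 h against 0 h 8.59% and 8.66%, and at 10 h against 1 h 18.7% and 18.8%.

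These calls depended on the variance model, the ranking and single lists. Without a variance trend in limma, 0 never-acetylated regions were called at 1 h or 10 h against 0 h, and 36 higher and 12 lower at 10 h against 1 h. With fold enrichment ranked in place of the p-value, 0 of the never-acetylated regions were higher and 2 lower at 1 h, 0 changed in either direction at 10 h against 0 h, and 38 were higher and 7 lower at 10 h against 1 h. Of the 88 calls at 10 h against 0 h, 1 was also made without 10 h replicate 1, 0 without 10 h replicate 2, 29 without 0 h replicate 1 and 24 without 0 h replicate 2. All 88 had the same sign in each of these fits. At 1 h against 0 h the numbers called higher and lower were 2 and 0 without 0 h replicate 1, 2 and 2 without 0 h replicate 2, 0 and 11 without 1 h replicate 1, and 0 and 3 without 1 h replicate 2. They were 20 and 12, and 18 and 11, without 10 h replicate 1 or 2. For 10 h against 1 h they were 140 and 19, and 112 and 23, without 1 h replicate 1 or 2, and 15 and 23, and 30 and 85, without 10 h replicate 1 or 2. Without 0 h replicate 1 or 2 the number called lower was 149 or 167. The 3 lower calls at 10 h against 0 h became 1 without 0 h replicate 1 and 0 without 0 h replicate 2 or 10 h replicate 1. A list left alone at its time was assumed to vary like the others.

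The regions with the smallest p-values showed what the calls rest on, and all adjusted p-values beside them are from the limma fit with a variance trend. At 1 h the region in an intron of EFCC1 (chr3:128739404-128741703) ranked at 56.5 and 45.7 at 0 h, 87.4 and 90.5 at 1 h and 52.5 and 47.6 at 10 h. Both 1 h values stand above all others. The change was 1.38 ± 0.22 (SE) with an adjusted p of 0.0125. The next were near PPIAL4C (1.53 ± 0.24), one of a family of near-identical cyclophilin A-like genes where reads may be placed wrongly, and TCAF2 (1.65 ± 0.27), a regulator of the TRPM8 channel. The fall at 1 h with the smallest p-value was near RUBCNL, an autophagy regulator, at chr13:47043500-47044492. Its percentiles were 75.0 and 64.0 at 0 h, 10.1 and 5.99 at 1 h and 39.8 and 53.6 at 10 h, with no overlap between the times, and it fell by 2.56 ± 0.31 (adjusted p 0.00262). ARHGEF18, a guanine nucleotide exchange factor, and ZFHX3, a homeobox factor, followed with changes of -1.31 ± 0.17 and -2.32 ± 0.30. The ARHGEF18 region was ranked lower at 1 h (70.3 and 73.3 against 96.9 and 93.9) while its peaks covered 3048 and 3175 bp there against 1158 and 1153 bp at 0 h, and the fold enrichment was 4.02 and 4.66 against 10.2 and 8.70. A lower rank can thus go with a longer peak, and whether it means less H3K4me1 was not tested.

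At 10 h against 0 h the first region lay in an intron of VWA2 (chr10:116030408-116032346), a von Willebrand factor A domain protein. It ranked at 71.4 and 64.4 at 0 h, 86.2 and 87.5 at 1 h and 92.9 and 98.1 at 10 h, a rise in which no list of 1 time overlapped another time. The change was 1.47 ± 0.20 (adjusted p 0.00300). It stood 47.5 kb from the nearest H3K27ac peak. CTXND1 (1.51 ± 0.20) and SOX9 (2.18 ± 0.30) were next. The latter region, chr17:70269221-70270570, lies 152 kb downstream of SOX9, a transcription factor of intestinal stem cells, and held 24.9 and 43.2 at 0 h, 32.7 and 30.4 at 1 h and 86.6 and 93.6 at 10 h. The 0 h and 1 h lists overlap there, and both 10 h lists are above them. Of the 3 regions called lower at 10 h against 0 h, 1 lay in an intron of DNAJC6, the clathrin uncoating factor auxilin, and went from 84.2 and 88.1 to 40.5 and 53.5 (-1.31 ± 0.21). Another lay near LYZL4 (-0.80 ± 0.16).

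At 10 h against 1 h the first region lay in an intron of RAPGEF1 (chr9:134493080-134494485), an exchange factor for RAP1, with PRRT1B as its nearest coding start. It held 66.7 and 64.6 at 0 h, 54.5 and 52.4 at 1 h and 93.5 and 94.0 at 10 h, and rose by 1.78 ± 0.18 (adjusted p 2.60e-04). The regions near TRIM69 (2.25 ± 0.26), a ubiquitin ligase, and in EGFLAM (2.04 ± 0.24), an extracellular matrix protein, followed. The PPIAL4C region led the falls, from 92.4 and 85.0 at 1 h to 27.5 and 43.7 at 10 h, after 45.9 and 48.6 at 0 h (-1.81 ± 0.24). Next were one in COL14A1 whose nearest coding start is that of MRPL13 (-1.98 ± 0.30) and one in GLDC, the glycine decarboxylase (-1.29 ± 0.21).

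**Figure D4:**
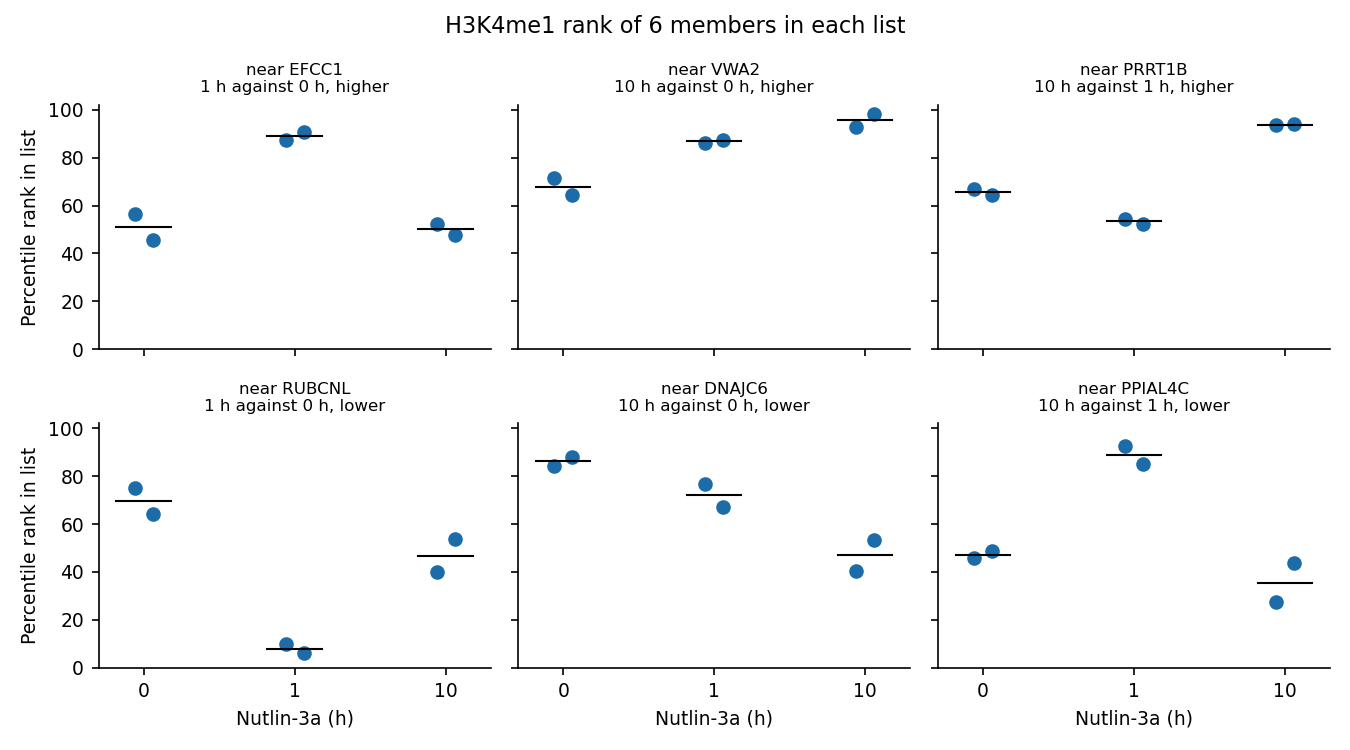
Percentile rank of 6 never-acetylated regions in each H3K4me1 list, by hours of Nutlin-3a; points are the 2 lists of a time, lines their mean, and each panel shows the region with the smallest p-value for that contrast and direction. EFCC1 and PPIAL4C stand highest at 1 h, RUBCNL stands lowest at 1 h, and VWA2 and PRRT1B stand highest at 10 h.

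By covered length, the log2 of the bases of a region under peaks of a list, no never-acetylated region passed the limma test in any contrast, where the background over all regions was 0% as well. An unadjusted p under 0.05 was found for 2587 (10.6%, against 10.4% of all regions) at 1 h against 0 h, 1710 (7.01% against 6.69%) at 10 h against 0 h and 3248 (13.3% against 14.0%) at 10 h against 1 h. The regions with the smallest p-values are given next. In an intron of RGS5, peaks covered 617 and 499 bp at 0 h, 4439 and 3653 bp at 1 h and 399 and 486 bp at 10 h, with both 1 h lists far above the rest (log2 change 2.72 ± 0.21 at 1 h, adjusted p 0.147, and -2.97 ± 0.21 at 10 h against 1 h, adjusted p 0.0680). Near AKAP13 the change at 1 h was -2.66 ± 0.24. At 10 h against 0 h the values were 2.73 ± 0.20 in ELOVL7, a fatty acid elongase, and -2.33 ± 0.21 in OSBPL10, and at 10 h against 1 h 2.17 ± 0.17 in ASB15.

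Small shifts over all never-acetylated regions ran with their sequence. The 6854 with AP-1 letters had a higher median normal score than the 17545 without by 0.069 and 0.035 in the 0 h lists, by 0.132 and 0.161 in the 1 h lists and by 0.004 and 0.039 in the 10 h lists. Both 1 h lists lay above the other 4, and the 0 h and 10 h lists overlapped. With 2 lists a time an exact test of these values cannot go below a two-sided p of 0.333, and none was run. The median change at 1 h against 0 h was 0.08 with AP-1 letters and -0.01 without, and at 10 h against 1 h it was -0.13 and -0.02. The change at 1 h ran with the number of matches, from -0.01 for none through 0.06 for 1 and 0.17 for 2 to 0.27 for 3 or more (83 regions). The same classes at 10 h against 1 h gave -0.02, -0.12, -0.21 and -0.26. AP-1 was not alone in this. TCF/LEF and GATA letters each had 0.07 with and 0.01 without at 1 h against 0 h. At 10 h against 1 h each had -0.13 and -0.05. CDX letters had 0.04 and 0.00 at 1 h, and FOX letters 0.04 and 0.01. The CTCF letters (-0.05 and 0.02), E-box (-0.02 and 0.01) and ETS letters (0.00 and 0.01) went the other way at 1 h. Differences between motifs were not tested.

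AP-1 letters stood in 18 of the 39 called higher at 1 h against 0 h (46.2%) and 8 of the 48 called lower (16.7%), where 28.1% of all never-acetylated regions hold them. They stood in 119 of the 258 called lower at 10 h against 1 h (46.1%) and 62 of the 315 called higher (19.7%). Both contrasts use the same 1 h lists, so these are not independent counts. The set acetylated in 1 to 9 lists had the same tilt at 1 h against 0 h. There AP-1 letters stood in 25 of 70 called higher (35.7%) and 11 of 64 called lower (17.2%), where 21.7% hold them. In regions acetylated in all 10 lists it was 7 of 32 higher (21.9%) and 4 of 13 lower (30.8%), where 17.4% hold them. In the set acetylated in 1 to 9 lists the median changes at 1 h were 0.06 with and 0.00 without AP-1 letters. In regions acetylated in all 10 lists they were 0.01 and -0.00. The surplus of AP-1 regions in median score there was 0.135 and 0.131 at 0 h, 0.127 and 0.153 at 1 h and 0.123 and 0.179 at 10 h. The difference between these sets was not tested.

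Base composition and width moved with the rank changes too, and values are given by each in turn, not by both together. Over 5 classes of never-acetylated regions of about equal size, from low to high GC content, the median change at 1 h against 0 h went from 0.09 to -0.05. Within each class the regions with AP-1 letters stood above the others, by 0.13 against 0.06 in the lowest and 0.05 against -0.08 in the highest. The same order held in all 6 width classes, from 0.04 against -0.11 up to 1000 bp to 0.02 against 0.00 over 5000 bp. The difference had its sign without any 1 of the 4 lists, and when fold enrichment was ranked (0.09 against -0.02). The 1 h lists also had the highest −log10 p-values of their top peaks, 641 and 404 against 94.4 to 133 in the others, and the part of library quality in these shifts was not tested.

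For the p53 half-site the time was 10 h. The 2151 never-acetylated regions with a half-site differed from the 22248 without by -0.056 and -0.074 in the 0 h lists, -0.050 and -0.047 in the 1 h lists and 0.032 and 0.048 in the 10 h lists, and the 10 h lists alone were above 0. Median changes at 10 h against 0 h were 0.01 with and -0.05 without. A half-site stood in 23 of the 85 regions called higher at 10 h against 0 h (27.1%), where 8.82% of all never-acetylated regions hold one. The acetylated sets had such an excess too. It was 62 of 228 (27.2%, where 8.42% hold one) in regions acetylated in 1 to 9 lists. In regions acetylated in all 10 lists it was 5 of 26 (19.2%, where 8.01% hold one). In never-acetylated regions the order of the median changes held in the 3 upper classes by GC content, by 0.08 against -0.08 in the highest. It did not hold in the 2 lowest, where both groups had -0.02 and -0.03. In the median score, regions acetylated in 1 to 9 lists showed the same turn, from -0.102 and -0.105 at 0 h to 0.048 and 0.019 at 10 h. Those acetylated in all 10 lists did not, with 0.073 and 0.055 at 0 h and 0.024 and 0.039 at 10 h.

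**Figure D5:**
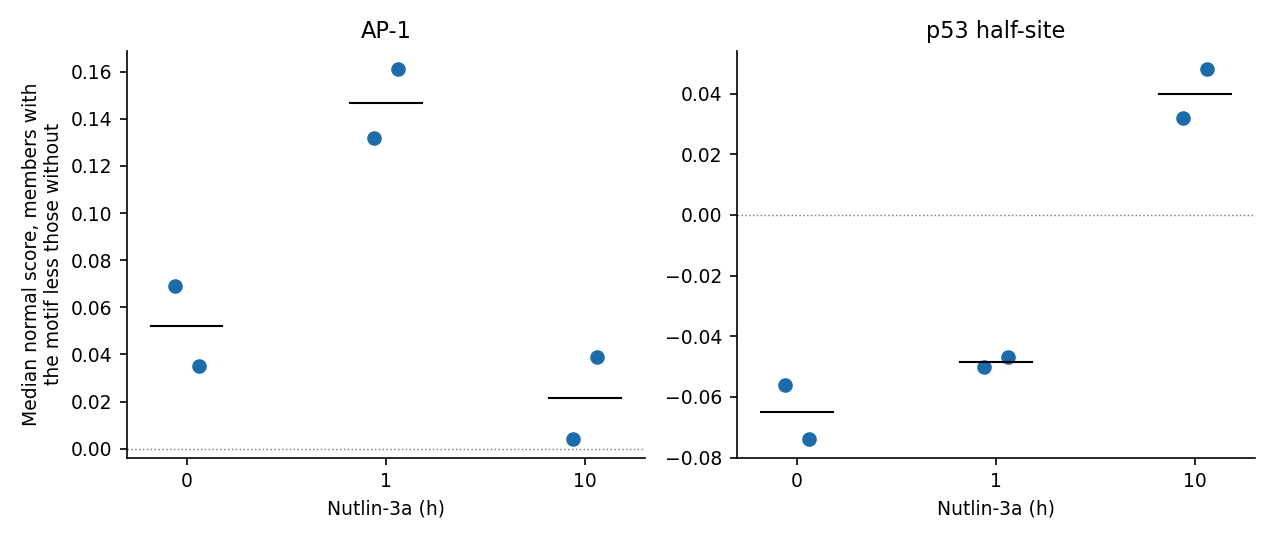
Median normal score of never-acetylated regions with a motif in their central 300 bases less that of those without, in each of the 6 H3K4me1 lists, by hours of Nutlin-3a; points are lists and lines the mean of the 2. For AP-1 both 1 h lists (0.132 and 0.161) lie above the other 4, and for the p53 half-site both 10 h lists (0.032 and 0.048) lie above 0 and the other 4 below it.

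Of the 11 regions with a full p53 element, the windows in LAMA3 and DSE shown above belonged to the 2 called higher at 10 h against 0 h. The region in an intron of LAMA3, a laminin chain of epithelial basement membranes, held percentiles of 65.6 and 59.4 at 0 h, 59.8 and 55.2 at 1 h and 83.1 and 90.8 at 10 h. Both 10 h lists were above the others, with a change of 0.98 ± 0.20 (adjusted p 0.0375, limma). The region in an intron of DSE, dermatan sulfate epimerase, held 4.45 and 6.52 at 0 h, 16.7 and 5.58 at 1 h and 56.0 and 56.8 at 10 h (adjusted p 0.0274 against 0 h, and a change of 2.01 ± 0.45 against 1 h with an adjusted p of 0.0284, limma). The nearest H3K27ac peak of any list lay 16.7 kb away. CAPRIN2, JADE3 and RPL34 had values of 0.84 ± 0.31, 0.90 ± 0.34 and 0.56 ± 0.22 and did not pass the test, nor did the other 6, from -0.46 to 0.25.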

How the data were processed

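ChIP-seq of 26 HCT116 samples was made by the authors, of which 16 have a peak list (6 H3K4me1, 10 H3K27ac) and 10 are inputs with no list used here. Per the labels, reads were trimmed (Trim Galore 0.6.6) and aligned to GRCh37 (Bowtie2 2.3.2), and the authors called peaks in each library with MACS2 2.2.7.1. Their methods name the broad mode for H3K4me1 and the narrow mode for H3K27ac. The deposited lists give each peak's fold enrichment, its −log10 p-value and its −log10 q-value, and no counts. In the study's methods SAMtools removed poorly mapped, blacklisted and duplicate reads before peak calling, and the coverage tracks and differential tests made with the other tools are not used here.

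Regions, percentile ranks and distances were computed from the lists and GENCODE 44 lifted to GRCh37, and a promoter ran from 1000 bp before to 200 bp after a coding start. Ranks and covered lengths of all 60476 regions called in all 6 H3K4me1 lists were fitted with limma 3.58.1 (R 4.3.3, trended variance), with an adjusted p of 0.05 as the threshold. On simulated data the rank fit at 1 h against 0 h recovered 49.0% of changes of 1 unit and 91.0% of changes of 2, over 60476 regions. The simulated noise was normal with the variances of the trended fit itself, so these rates cannot test the variance trend. The numbers of the replicates did not pair the samples. The regions named are the first 3 by p-value for rank in each contrast and direction, the first for covered length, the 5 highest ranked, the 5 widest, the 3 farthest from a coding start and those with 2 joined p53 half-sites, the last added after seeing the data. Genes named are the 10 with the most regions and the leading members of each list. The regions, gene lists and tests were chosen with earlier results of these data known. Alternatives were stricter q-values, other list sets, other distances, other rankings and fits, and leaving out each list. Some items that these rules name are not reported here.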

Additional observations from a re-analysis of the deposited data

How the results depend on the processing

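The lists hold only called peaks and no read counts, so H3K27ac under the calling threshold cannot be told apart from none. With H3K4me1 peaks of a −log10 q of at least 5 only, 5496 regions were left, with a median width of 1952 bp, a median percentile of 68.9 and a median distance of 34488 bp, and they held 14 higher and 15 lower calls at 1 h, 19 higher at 10 h against 0 h, and 71 higher and 75 lower at 10 h against 1 h. With H3K27ac peaks of that strength only, the width was 1555 bp and the distance 34527 bp, with 59 and 139 higher at 1 h and 10 h against 0 h. With the 3 H3K27ac lists named without input, these were 1556 bp, 33351 bp, 62 and 210, and 553 were higher at 10 h against 1 h. Regions over 5000 bp from a start lay at 41001 bp. Leaving out a list gave 24578 to 26792 regions.

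Without a variance trend, 0 regions were called at 1 h or 10 h against 0 h, and 36 higher and 12 lower at 10 h against 1 h. Ranking fold enrichment gave 0 higher and 2 lower at 1 h, 0 and 0 at 10 h, and 38 and 7. Fitting only regions with a −log10 q of at least 5 in every list gave 2 and 6, 5 and 0, and 45 and 39. Fitting distal regions only gave 6 lower at 10 h against 0 h. With a replicate block, which the data did not call for, the counts were 49 and 57, 84 and 3, and 347 and 283. Leaving out 1 list gave 0 to 20 higher and 0 to 12 lower at 1 h, 0 to 84 and 0 to 2 at 10 h, and 15 to 225 and 19 to 167 at 10 h against 1 h. No direction reversed, covered length gave 0 calls throughout, and the cause of the losses was not tested. The splits of the AP-1 and p53 half-site shifts by GC content, width, ranking and list were chosen after seeing the data.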
